A study of Mus musculus with 10 samples.

Results

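Bisphenol A (BPA) is a plastic monomer that binds estrogen receptors, and the measurements described here ask whether exposure to it before birth altered how the adult uterus responded to estradiol (E2). The quantity is a difference of differences over all 10 arrays of the series: the E2 response of uteri exposed to BPA in utero (BPA-E2 minus BPA-CTL) minus the E2 response of uteri exposed to vehicle in utero (CTL-E2 minus CTL-CTL), with arrays assigned by their titles. It was computed on the log2 scale for 16272 genes or unnamed probes. A positive difference means that the response was higher after BPA than after vehicle, and a negative one that it was lower. The comparison is an interaction, so it does not say by itself which of the 4 groups differs; the 4 group levels are therefore given beside it.

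The animals were outbred CD-1 mice whose dams received BPA at 5 mg/kg/day or the DMSO vehicle by intraperitoneal injection on gestation days 9 to 21. All female offspring used had their ovaries removed at 6 weeks of age, so every group lacked ovaries. Uteri were collected at 8 weeks, 6 h after an injection of 300 ng E2 or of DMSO. BPA-E2 (3 arrays) received BPA in utero and E2 as adults, BPA-CTL (3 arrays) BPA in utero and DMSO as adults, CTL-E2 (2 arrays) DMSO in utero and E2 as adults, and CTL-CTL (2 arrays) DMSO at both times. Each array holds uterine RNA pooled within a litter, and each litter gave 1 E2 array and 1 DMSO array, so there were 3 litters exposed to BPA and 2 exposed to vehicle. The tissue was whole uterus, a mixture of epithelium, stroma, muscle, vessels and immune cells, and the number of animals in a pool is not given in the sources used here.

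Estradiol acts in the uterus through estrogen receptor alpha, a transcription factor encoded by Esr1. In the ovariectomized rodent, a single dose first induces immediate early genes and growth-promoting transcripts, with water uptake and RNA and protein synthesis, and later drives epithelial DNA synthesis, mitosis and the production of secretory proteins such as lactoferrin. A collection time of a few hours falls in the early part of this sequence.

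The median deposited signal lay between 122.3 and 131.9 intensity units across the 10 arrays, against a background of 104.8 to 112.9, and 43.6% to 46.6% of probes were detected. Arrays of the same group correlated at 0.992 to 0.994 over the 16272 genes or unnamed probes. All 4 arrays of vehicle-exposed litters lay on 1 slide and all 6 arrays of BPA-exposed litters on another, so slide and exposure cannot be told apart; a slide effect that adds the same amount to both arrays of a litter cancels in the difference of responses, whereas one that changes the scale of a slide does not. On both slides the E2 arrays occupied earlier positions than the DMSO arrays. Defining markers of uterine tissue were detected on all 10 arrays, among them Cdh1, Krt8 and Krt18 for epithelium, Vim, Pdgfra, Dcn and Hoxa11 for stroma, Acta2, Myh11 and Des for smooth muscle and Pecam1 and Cdh5 for endothelium. The Epcam probe, a further epithelial marker, was detected on 0 arrays.

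The response to E2 differed between BPA-exposed and vehicle-exposed uteri for 2533 of 16272 genes or unnamed probes, or 15.6%, at an adjusted p under 0.05 (limma with Benjamini-Hochberg adjustment over all 16272, two-sided), and these are referred to as called. The difference was higher after BPA for 1280 (7.87%) and lower for 1253 (7.7%), and it exceeded 2-fold for 909, of which 498 were higher and 411 lower. The median difference over everything tested was -0.01 on the log2 scale, and the median size among the called was 0.84, against a median standard error of 0.18; standard errors (SE) throughout come from that fit to 3, 3, 2 and 2 arrays. In all 2533 called the E2 minus DMSO differences of the 3 BPA litters lay entirely above or entirely below those of the 2 vehicle litters, a separation seen in 45.5% of everything tested. With litter as a block, which the labels support, 1739 were called. For scale, 4725 (29.0%) were called in the E2 response after BPA and 3643 (22.4%) in the E2 response after vehicle. The first rests on 3 and 3 arrays and the second on 2 and 2, so these counts are not on equal terms.

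**Figure D1:**
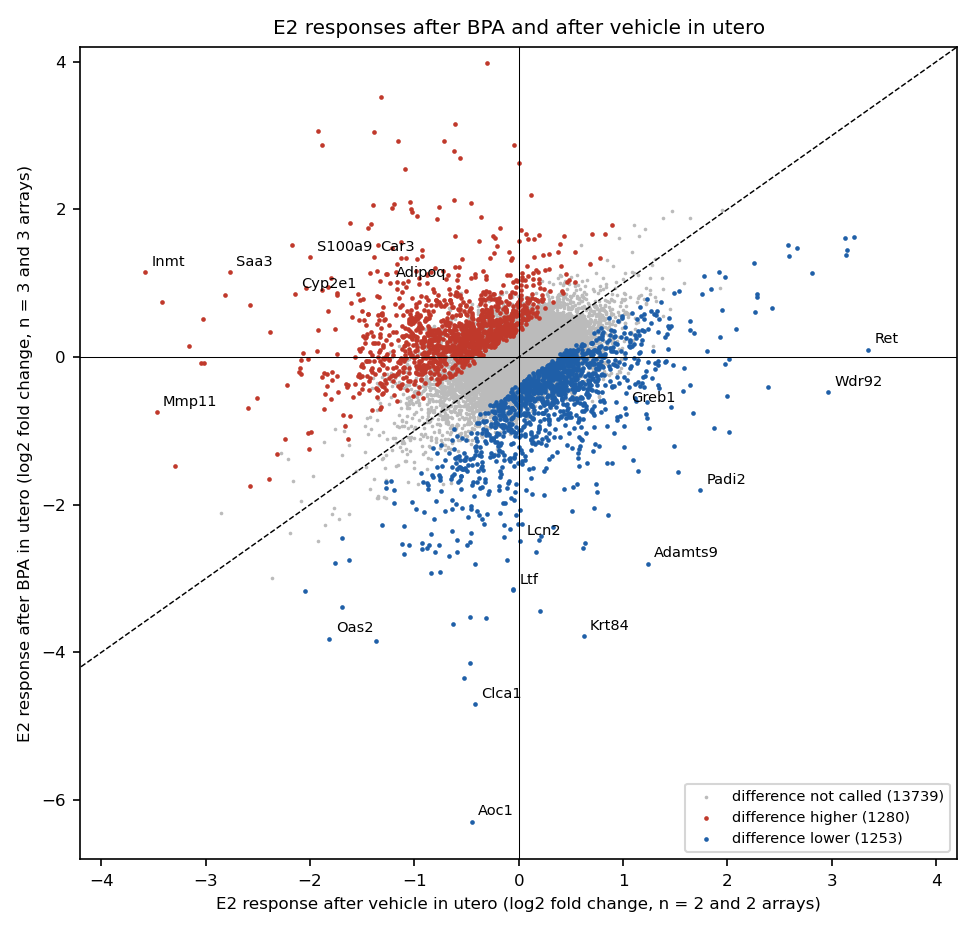
Each point is a gene or unnamed probe, with the E2 response after vehicle in utero on the horizontal axis and the E2 response after BPA in utero on the vertical axis, both as log2 fold change. Points on the dashed diagonal responded equally; the 1280 called higher lie above it and the 1253 called lower lie below it.

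The called genes fell into several kinds of response. The response after vehicle rests on fewer arrays and has a larger standard error than that after BPA. The counts of called responses therefore do not compare the extent of the E2 response between exposures. The largest kind, 526 genes or unnamed probes, fell with E2 after BPA and had no called response after vehicle, with a median response of -0.73 after BPA and 0.06 after vehicle. A further 488 fell with E2 after vehicle and had no called response after BPA (median 0.08 after BPA and -0.80 after vehicle). Another 381 rose after BPA with no called response after vehicle, and 325 rose after vehicle with no called response after BPA. In 438, or 2.69% of everything tested, both responses were called and had opposite signs: 280 rose with E2 after BPA and fell after vehicle, and 158 fell after BPA and rose after vehicle. Both responses were called with the same sign for 1463, and 1192 of these were not called in the difference.

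**Figure D2:**
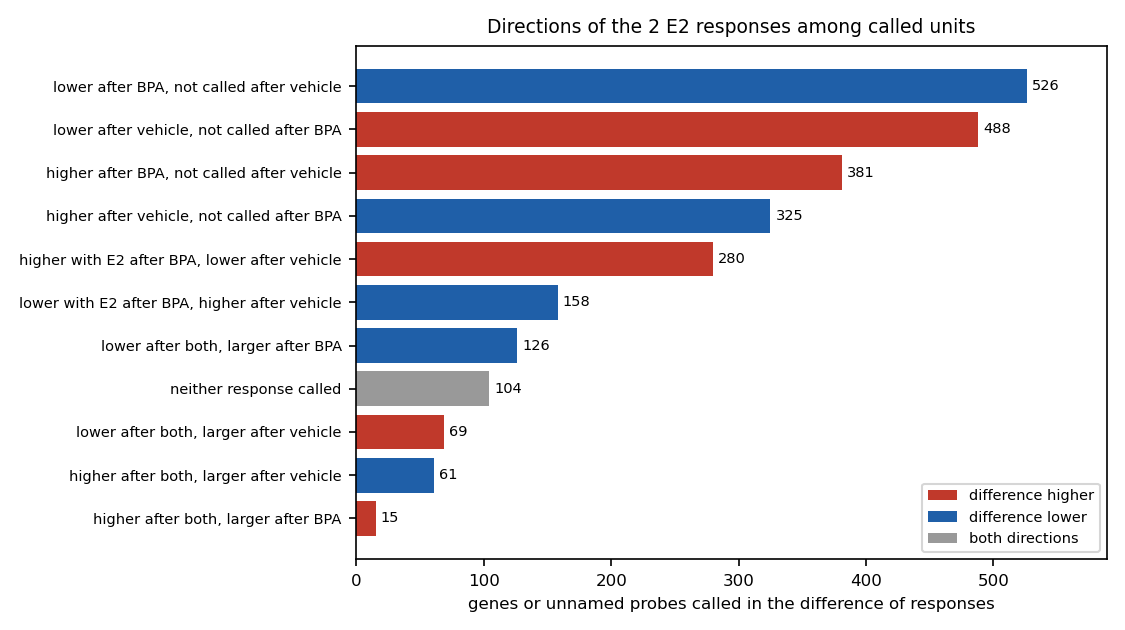
The bars count the 2533 called genes or unnamed probes by the direction of the E2 response after BPA and after vehicle in utero. Responses lower after BPA and not called after vehicle (526) and lower after vehicle and not called after BPA (488) are the longest bars; the 2 kinds with opposite signs hold 280 and 158.

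As a description chosen after the values were seen, each called gene was also assigned to the group whose mean lay farthest from the mean of the other 3. BPA-E2 stood apart for 919 (36.3% of the called), CTL-CTL for 983 (38.8%), CTL-E2 for 351 (13.8%) and BPA-CTL for 280 (11.1%). Among the called, BPA-E2 and CTL-CTL were thus the groups most often apart. The genes below are described with all 4 levels for that reason. The same shares over everything tested were not computed. The assignment compares levels between slides, so an additive slide effect does not cancel in it.

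The largest negative differences belonged to genes that were bright in 3 groups and much dimmer in BPA-E2. Aoc1, diamine oxidase, which degrades histamine and putrescine, had normalized log2 intensities of 6.07, 6.06 and 5.72 on the BPA-E2 arrays, 12.26, 12.26 and 12.20 on the BPA-CTL arrays, 13.33 and 13.44 on the CTL-E2 arrays and 13.84 and 13.82 on the CTL-CTL arrays. The BPA-E2 arrays were far below the other 3 groups. Its E2 response was -6.29 after BPA and -0.45 after vehicle, a difference of -5.84 ± 0.16 (SE, adjusted p = 4.73e-07). Krt84, a hair-type keratin, read 5.36, 5.23 and 5.11 in BPA-E2, 8.94, 8.99 and 9.12 in BPA-CTL, 10.12 and 10.08 in CTL-E2 and 9.68 and 9.27 in CTL-CTL, a difference of -4.41 ± 0.18 (adjusted p = 2.89e-06). The same shape was seen for Clca1, a secreted regulator of chloride channels in mucous epithelia (difference -4.28), Atp10b, a phospholipid-transporting ATPase (-3.83), Arg1, which cleaves arginine to ornithine (-3.68), Slco4a1, an organic anion transporter (-3.20), and Fam3b, a secreted cytokine-like protein (-3.15). Without background correction the differences of the dimmer genes shrank, to -2.74 for Krt84, -2.64 for Adamts9, -2.09 for Atp10b and -1.85 for Fam3b, and each remained called.

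Other genes on the negative side rose with E2 after vehicle and did not rise after BPA. Ret, the receptor tyrosine kinase for ligands of the GDNF family, had log2 intensities of 8.05, 8.02 and 7.83 in BPA-E2 and 7.90, 7.91 and 7.79 in BPA-CTL, against 9.58 and 9.44 in CTL-E2 and 6.22 and 6.10 in CTL-CTL. All 6 BPA-exposed arrays lay between the 2 vehicle-exposed groups. Its response was 0.10 after BPA (adjusted p = 0.437) and 3.35 after vehicle, a difference of -3.25 ± 0.14 (adjusted p = 3.03e-06). Wdr92, which takes part in the assembly of ciliary dyneins, had a response of -0.48 after BPA and 2.96 after vehicle. Its difference was -3.44, or -1.71 when its detected probes were averaged.

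Among genes with opposite responses, Padi2, a peptidylarginine deiminase that converts arginine to citrulline in proteins, had the largest smaller response. It read 8.16, 7.77 and 7.82 in BPA-E2 and 9.66, 9.76 and 9.73 in BPA-CTL, against 10.48 and 10.41 in CTL-E2 and 8.75 and 8.65 in CTL-CTL. E2 arrays were the lowest of all after BPA and the highest of all after vehicle, with a response of -1.80 after BPA, 1.74 after vehicle and a difference of -3.54 ± 0.17 (adjusted p = 5.02e-06). Adamts9, a secreted protease of proteoglycans, fell by 2.80 after BPA and rose by 1.24 after vehicle. Emb, a membrane glycoprotein of the immunoglobulin family, responded by -1.54 after BPA and 1.14 after vehicle. The orphan receptor gene Gpr83 responded by -1.22 and 1.01 in the same order, Unc5cl by -1.56 and 1.52, and Tlcd4 by -1.03 and 0.92. Averaging a gene's detected probes gave smaller differences for Padi2 (-2.08), Adamts9 (-2.36) and Gpr83 (-1.37), and leaving out background correction did so for Unc5cl (-1.4) and Tlcd4 (-1.24), all of them still called.

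On the positive side the largest differences came from genes that were high in CTL-CTL and fell with E2 after vehicle. Inmt, an N-methyltransferase of tryptamine and related amines, had log2 intensities of 9.89, 10.04 and 9.90 in BPA-E2 and 8.78, 8.78 and 8.82 in BPA-CTL, against 8.93 and 9.05 in CTL-E2 and 12.51 and 12.62 in CTL-CTL. The 2 CTL-CTL arrays were far above the other 8, among which the BPA-E2 arrays were the highest. The response was 1.15 after BPA and -3.58 after vehicle, a difference of 4.73 ± 0.12 (adjusted p = 3.07e-07). Saa3, an acute-phase serum amyloid, read 8.03, 8.28 and 8.36 in BPA-E2, 7.12, 7.10 and 7.0 in BPA-CTL, 8.29 and 8.36 in CTL-E2 and 11.09 and 11.09 in CTL-CTL. Its difference was 3.92 ± 0.15 (adjusted p = 2.08e-06), from a response of 1.15 after BPA and -2.77 after vehicle. S100a9 and S100a8, the subunits of calprotectin, a protein abundant in neutrophils, had differences of 3.35 and 2.58.

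Pamr1, a secreted protein with protease-like domains, and Mmp11, a stromal matrix metalloproteinase, also stood highest in CTL-CTL but did not rise with E2 after BPA. Pamr1 responded by -0.09 after BPA (adjusted p = 0.599) and -3.02 after vehicle, and Mmp11 fell under both exposures, with responses of -0.75 after BPA and -3.47 after vehicle. Cxcl13, a chemokine that attracts B cells, was highest in BPA-E2 instead, at 7.33, 7.41 and 7.31, against 5.56, 5.30 and 5.59 in BPA-CTL, 5.80 and 5.49 in CTL-E2 and 6.35 and 6.51 in CTL-CTL. Its difference was 2.65 ± 0.18 (adjusted p = 2.89e-05), or 1.18 without background correction. Mzb1, a chaperone of B cells and plasma cells, had a difference of 2.87 (1.36 without background correction), and Retnla, a secreted resistin-like protein, one of 2.43 (1.51 without background correction).

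Further strong positive differences were found in Car3, Pnpla3, Cyp2e1 and Apoc1, none of which is in the adipocyte marker list. Car3, a carbonic anhydrase, had log2 intensities of 11.81, 11.82 and 11.86 in BPA-E2 and 10.47, 10.48 and 10.47 in BPA-CTL, against 9.61 and 9.44 in CTL-E2 and 11.02 and 10.79 in CTL-CTL. Within each exposure the E2 and DMSO arrays did not overlap, and E2 was higher after BPA and lower after vehicle, with responses of 1.35 and -1.38 and a difference of 2.74 ± 0.13 (adjusted p = 4.69e-06). Pnpla3, a lipid droplet protein, responded by 1.15 after BPA and -1.18 after vehicle (difference 2.33, or 1.53 without background correction). Cyp2e1, a cytochrome P450, had a difference of 3.01, and the apolipoprotein gene Apoc1 one of 2.37. The adipocyte marker list described below was also higher, and its part in these results was not tested.

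**Figure D3:**
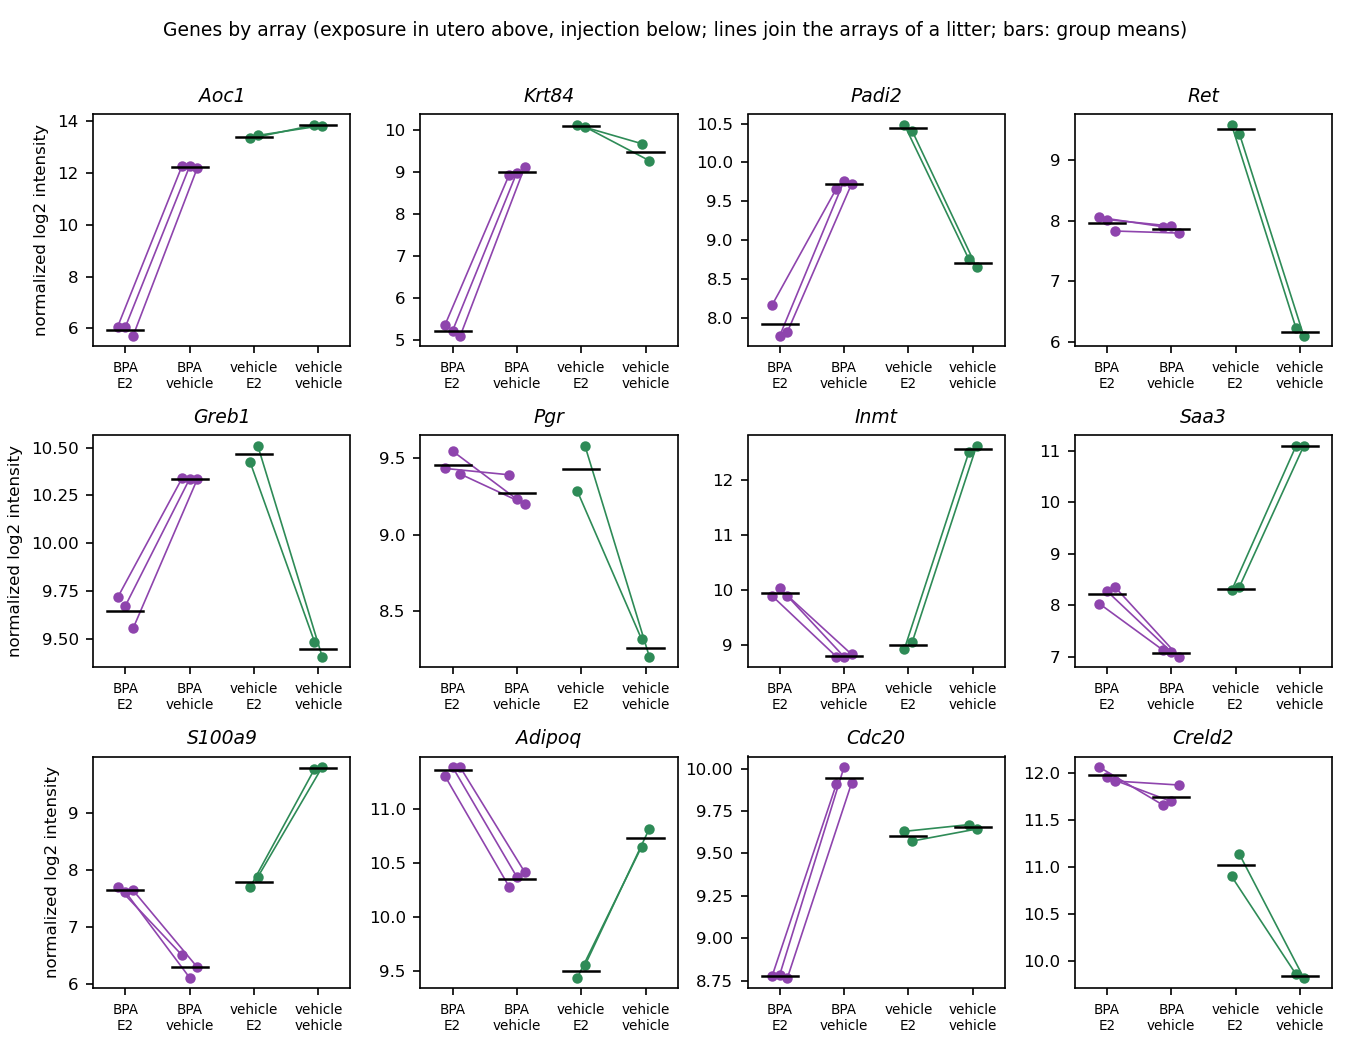
Normalized log2 intensity on each of the 10 arrays for 12 genes, with BPA-E2, BPA-CTL, CTL-E2 and CTL-CTL from left to right, lines joining the 2 arrays of a litter and bars at group means; the vertical scale differs between panels. The lines slope oppositely in the 2 exposures for Padi2, Greb1, Saa3, S100a9, Inmt, Adipoq and Krt84, and the BPA-E2 arrays lie far below all others for Aoc1 and Krt84.

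Genes known as early targets of estrogen in the uterus did not move as a group. Of 31 tested, 4 had a higher and 10 a lower response after BPA (45.2% called, against 15.6% over all), with a median difference of 0.05 and median responses of 0.17 after BPA and 0.24 after vehicle. Greb1, a coactivator of estrogen receptor alpha, had log2 intensities of 9.72, 9.67 and 9.55 in BPA-E2 and 10.34, 10.34 and 10.34 in BPA-CTL, against 10.42 and 10.51 in CTL-E2 and 9.48 and 9.40 in CTL-CTL. The DMSO arrays of BPA litters were nearly as high as the E2 arrays of vehicle litters, and E2 lowered Greb1 after BPA (-0.69) and raised it after vehicle (1.02), a difference of -1.71 ± 0.11 (adjusted p = 2.36e-05). Klf4, a zinc-finger transcription factor, had the same opposite pattern (-0.54 after BPA, 0.66 after vehicle). Igfbp3, a carrier of insulin-like growth factors, rose by 1.40 after BPA and had a response of -0.24 after vehicle (adjusted p = 0.188), a difference of 1.64.

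Pgr, the progesterone receptor and a textbook estrogen target, read 9.43, 9.55 and 9.40 in BPA-E2 and 9.39, 9.23 and 9.20 in BPA-CTL, against 9.28 and 9.58 in CTL-E2 and 8.32 and 8.20 in CTL-CTL. Only CTL-CTL stood apart, with a response of 0.18 after BPA (adjusted p = 0.2), 1.17 after vehicle and a difference of -0.99 ± 0.16 (adjusted p = 0.00323). The immediate early genes Egr1 and Fos had differences of opposite sign. Egr1 rose under both exposures, by 0.35 after BPA and 0.76 after vehicle, and its difference of -0.41 lost its call when litter was a block (adjusted p = 0.0845) or without BPA-E2 replicate 2 (0.0501), CTL-E2 replicate 1 (0.0639), CTL-E2 replicate 2 (0.0553) or CTL-CTL replicate 1 (0.0648), and on the linear scale its direction turned (416 intensity units, adjusted p = 0.314). Fos had a response of 0.15 after BPA (adjusted p = 0.2) and fell by 0.53 after vehicle, a difference of 0.68 (adjusted p = 0.00664).

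The receptor gene itself showed no called difference. Esr1 read 10.50, 10.08 and 10.21 in BPA-E2, 10.29, 10.15 and 10.63 in BPA-CTL, 9.88 and 10.09 in CTL-E2 and 9.78 and 10.13 in CTL-CTL, with E2 and DMSO arrays overlapping under each exposure and a difference of -0.12 ± 0.25 (adjusted p = 0.799). Of 12 steroid receptors and coregulators tested, Greb1 and Pgr were lower, Gper1, a membrane estrogen receptor, was higher by 0.90 (adjusted p = 0.0185, and 0.0606 with litter as a block), and the other 9 were not called. The difference of Gper1 was 0.45 without background correction, and its adjusted p was 0.0674 without CTL-E2 replicate 2 and 0.0646 without CTL-CTL replicate 2. Igf1, the growth factor through which stroma relays estrogen signals to epithelium, had a difference of -0.25 ± 0.10 (adjusted p = 0.138). It was called lower when the variance was given a trend and estimated robustly (adjusted p = 0.0317) and on the linear scale (0.0177).

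Among 28 uterine patterning and implantation regulators, 4 differences were higher and 3 lower, and the list's median was -0.08. Ihh, the hedgehog ligand made by uterine epithelium, was not detected in CTL-CTL and rose with E2 at least 4.29-fold after vehicle, against a response of 0.81 on the log2 scale after BPA, so its difference was -1.29 or lower (adjusted p = 0.0089 for the fitted value, which was -0.54 without background correction). The hedgehog receptor Ptch1, itself a target of the pathway, rose with E2 by 1.43 after BPA and 1.09 after vehicle. Its difference of 0.34 was not called (adjusted p = 0.14). It was called without background correction (adjusted p = 0.046), on the linear scale (0.024) and without BPA-CTL replicate 1 (0.046). Over the mean of its probes it was 0.20 and not called (0.575). Hoxa10, a homeobox gene that patterns the uterus, responded by 0.08 after BPA (adjusted p = 0.685) and 0.89 after vehicle, and its difference of -0.81 had an adjusted p of 0.0224. This call was lost without CTL-E2 replicate 1 (0.073), CTL-E2 replicate 2 (0.0568) or CTL-CTL replicate 1 (0.081) and on the linear scale (0.0939), and the difference was -0.37 without background correction. Hoxa11 (difference -0.17 ± 0.35) and Lif, an implantation cytokine (-0.69 ± 0.37, adjusted p = 0.269), were not called. Msx1, an implantation-associated homeobox gene, rose by 1.02 after BPA and 0.46 after vehicle, a difference of 0.56 with an adjusted p of 0.0144, or 0.0629 with litter as a block, 0.0537 without CTL-E2 replicate 2 and 0.0506 without CTL-CTL replicate 2. Wnt4, needed for the decidual response, had a difference of 0.98 (adjusted p = 0.00345). The count of 4 higher members was 2 with litter as a block, 1 without CTL-E2 replicate 2 and 2 without either CTL-CTL array.

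Secreted proteins that accumulate late in the estrogen response had the widest range of differences of the 34 lists. Of 29 tested, 15 were lower and 3 higher (62.1% called), the higher ones including Lyz2, which is also counted among macrophage markers, with a median difference of -0.80 and median responses of -1.01 after BPA and -0.39 after vehicle. The median difference was -0.24 without background correction, -0.26 in the authors' processed table and -0.46 with no filter on dim probes. Their summed intensity was 57554 to 58090 units on the BPA-E2 arrays and 142256 to 146453 on the BPA-CTL arrays, against 221059 to 222085 in CTL-E2 and 240627 to 245466 in CTL-CTL, so no groups overlapped. Ltf, lactoferrin, an iron-binding milk and mucosal protein, read 10.67, 10.69 and 10.58 in BPA-E2, 13.83, 13.82 and 13.76 in BPA-CTL, 15.34 and 15.35 in CTL-E2 and 15.39 and 15.41 in CTL-CTL, a difference of -3.10 ± 0.10 (adjusted p = 1.16e-06). Lcn2, a siderophore-binding lipocalin, had a response of -2.50 after BPA and 0.01 after vehicle (adjusted p = 0.921). On the vehicle-exposed arrays both genes lay near the top of the scale: the deposited Lcn2 signal was 46808 and 47318 in CTL-E2 and 44108 and 43484 in CTL-CTL, where the brightest probe of any array read 43962 to 47667. Whether that ceiling limited their measured response after vehicle was not tested. Aoc1 and Clca1, with 13413 and 19046 as their deposited signals on CTL-CTL replicate 2, were below it. On the linear intensity scale the list's counts were 11 higher and 9 lower, and Aoc1 and Clca1 lost their calls (adjusted p = 0.0919 and 0.231).

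Genes of mitosis were lower after BPA without exception among those called. Of 28 tested, 17 were lower and 0 higher (60.7% called), with a median difference of -0.84 and median responses of -1.05 after BPA and -0.21 after vehicle. Their summed intensity was 7205 to 7434 in BPA-E2 and 15878 to 16260 in BPA-CTL, against 14117 to 14252 in CTL-E2 and 15666 to 16061 in CTL-CTL, so BPA-E2 held less than any other group. Cdc20, an activator of the anaphase-promoting complex, read 8.78, 8.78 and 8.77 in BPA-E2, 9.91, 10.01 and 9.92 in BPA-CTL, 9.63 and 9.57 in CTL-E2 and 9.67 and 9.64 in CTL-CTL, a difference of -1.11 ± 0.10 (adjusted p = 0.000139). Cenpa, the histone variant of centromeres, had a difference of -1.32, Birc5, a subunit of the chromosomal passenger complex, one of -1.37, and the mitotic kinesin Kif2c one of -1.65, or -0.80 without background correction. Across the 25 alternative settings, with the stricter threshold aside, no count of this list moved by more than 1.5 times.

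Promoters of cell-cycle genes often carry a CCAAT box, bound by the factor NF-Y, and a TTTGAA element, the cell-cycle genes homology region. Of 23 mitosis genes with a RefSeq promoter, CCAAT stood within 250 bases before the start on either strand in 16 (69.57%), against 35.93% of 9963 tested genes, and TTTGAA in 8 (34.78%), against 11.02%. The 200 bases before the start of Cdc20 (GRCm38.p6, chr4:118437344-118437543, minus strand) and of Top2a, which untangles DNA (chr11:99024190-99024389, minus strand), are shown because both genes were called lower and hold both motifs; Top2a was chosen after its values were seen. Of the 16 genes with CCAAT 10 were called, against 5 of the 7 without it, and of the 8 with TTTGAA 3 were called, against 12 of the 15 without it. Capitals mark CCAAT or TTTGAA on either strand, read in RefSeq's direction of transcription. A match describes letters and not a bound site.
Cdc20: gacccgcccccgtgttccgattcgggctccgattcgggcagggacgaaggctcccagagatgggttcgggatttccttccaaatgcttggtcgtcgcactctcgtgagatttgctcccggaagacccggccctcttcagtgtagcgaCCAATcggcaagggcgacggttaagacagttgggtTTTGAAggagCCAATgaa
Top2a: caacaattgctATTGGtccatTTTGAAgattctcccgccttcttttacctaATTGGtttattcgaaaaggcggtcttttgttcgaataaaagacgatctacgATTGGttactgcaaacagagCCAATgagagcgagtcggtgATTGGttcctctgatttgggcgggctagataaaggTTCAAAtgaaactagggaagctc
Top2a read 8.68, 8.51 and 8.76 in BPA-E2, 9.35, 9.37 and 9.38 in BPA-CTL, 9.51 and 9.51 in CTL-E2 and 9.47 and 9.52 in CTL-CTL, a difference of -0.73 ± 0.12 (adjusted p = 0.00445).

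Histone genes, most of them expressed in S phase, had 19 lower and 0 higher of 48 tested (39.6% called, against 15.6% over all). Their median difference was -0.50, with median responses of -0.72 after BPA and -0.39 after vehicle. The median difference was -0.25 without background correction and in the authors' processed table. H2bc6 responded by -1.51 after BPA and -0.51 after vehicle, and H3c7 by -2.13 after BPA and -0.30 after vehicle (adjusted p = 0.197). The difference of H2bc6 was -0.52 over the mean of its probes, and that of H3c7 -1.01 without background correction. Histone genes are near-identical copies, so a probe can read more than 1 of them. Genes of DNA replication and the G1/S transition did not follow the mitosis list. Of 36 tested, 6 were higher and 0 lower, a share of 16.7% that is close to the 15.6% over all, with a median difference of 0.23. The 6 calls, among them the replication clamp Pcna (1.03) and the transcription factor E2f1 (0.64), became 1 with litter as a block, 1 without CTL-CTL replicate 1, 2 without BPA-CTL replicate 1 or 2 or CTL-E2 replicate 1, and 3 without BPA-E2 replicate 1 or 2, CTL-E2 replicate 2 or CTL-CTL replicate 2. They became 3 with no filter on dim probes and 10 without background correction, where the list's median was 0.14 and the difference of Pcna 0.42.

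Chaperones of the endoplasmic reticulum rose with E2 after vehicle and had nearly no median response after BPA. Of 30 tested, 14 differences were lower and 0 higher (46.7% called), with median responses of -0.01 after BPA and 0.33 after vehicle and a median difference of -0.38. The calls depend on few arrays: 6 were called with litter as a block, 8 with no filter on dim probes, 11 without BPA-CTL replicate 3, 9 without BPA-CTL replicate 2 or CTL-CTL replicate 2, 8 without BPA-E2 replicate 1 or 2, 7 without BPA-E2 replicate 3, BPA-CTL replicate 1, CTL-E2 replicate 1 or CTL-CTL replicate 1, and 6 without CTL-E2 replicate 2. The median stayed between -0.40 and -0.35 in all settings that gave one. The summed intensity was 92628 to 95241 in BPA-E2 and 94713 to 95875 in BPA-CTL, against 87354 to 87850 in CTL-E2 and 70055 to 70209 in CTL-CTL, so CTL-CTL was the low group. Creld2, a secreted ER stress protein, read 12.06, 11.95 and 11.91 in BPA-E2, 11.65, 11.70 and 11.87 in BPA-CTL, 10.90 and 11.14 in CTL-E2 and 9.86 and 9.82 in CTL-CTL, a difference of -0.94 ± 0.14 (adjusted p = 0.00291, and 0.0798 on the linear scale). Hyou1, a large ER chaperone, had a difference of -1.09, or -0.55 without background correction.

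The ER stress response element, the letters CCAAT and CCACG with 9 bases of any kind between them, is a promoter motif of genes induced by unfolded protein in the ER. Within 250 bases before the start on either strand it was found in 8 of 25 ER chaperone genes with a RefSeq promoter (32.0%), against 13 of 9963 tested genes (0.13%). Of those 8 genes, 3 were called lower, Hspa5, which encodes the main ER chaperone BiP, Creld2 and Dnajc3, a co-chaperone of BiP, and their promoters are shown for that reason; Hspa5 and Dnajc3 were chosen after their values were seen. Of the 17 genes without the element, 9 were called. The 200 bases lie at chr2:34771890-34772089, plus strand, for Hspa5, at chr15:88819446-88819645, plus strand, for Creld2 and at chr14:118937732-118937931, plus strand, for Dnajc3 (RefSeq, GRCm38.p6). Capitals mark the element, which in Creld2 is read on the opposite strand and overlaps CCAAT by construction.
Hspa5: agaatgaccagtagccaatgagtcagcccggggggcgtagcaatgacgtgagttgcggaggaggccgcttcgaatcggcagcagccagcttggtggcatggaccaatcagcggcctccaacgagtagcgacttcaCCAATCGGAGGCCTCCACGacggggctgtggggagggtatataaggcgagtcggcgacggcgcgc
Creld2: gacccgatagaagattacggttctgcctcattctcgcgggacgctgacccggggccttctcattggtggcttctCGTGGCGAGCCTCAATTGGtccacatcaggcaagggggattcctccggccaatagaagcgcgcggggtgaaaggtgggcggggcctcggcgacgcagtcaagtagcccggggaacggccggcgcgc
Dnajc3: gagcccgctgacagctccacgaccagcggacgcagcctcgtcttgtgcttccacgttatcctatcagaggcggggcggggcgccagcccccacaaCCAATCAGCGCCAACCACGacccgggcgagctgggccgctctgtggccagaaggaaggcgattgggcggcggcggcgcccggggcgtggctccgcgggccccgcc
Dnajc3 had a response of 0.09 after BPA (adjusted p = 0.555) and rose by 0.75 after vehicle, a difference of -0.66 ± 0.16 (adjusted p = 0.0227). Hspa5 fell by 0.50 after BPA and had a response of 0.39 after vehicle (adjusted p = 0.0755), a difference of -0.89 ± 0.18 (adjusted p = 0.011). The palindromic estrogen response element, GGTCA and TGACC with 3 bases between them, was found in 0 of the 9963 windows, which says only that these letters are not in them.

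Lists of protein synthesis machinery had few called differences, at 0.0% to 5.7% of members against 15.6% over all. Of 35 ribosome biogenesis genes, 20 rose after BPA and 20 rose after vehicle, and 2 differences were called, both lower, with median responses of 0.30 after BPA and 0.47 after vehicle. Of 19 aminoacyl-tRNA synthetases, 9 rose and 1 fell after BPA, 11 rose and 0 fell after vehicle, and 0 differences were called. Of 39 mitochondrial ribosomal proteins, 3 rose and 2 fell after BPA, 8 rose and 0 fell after vehicle, and 2 differences were called, both lower. Rrp12, which exports ribosomal subunits from the nucleus, had the strongest difference of these lists, rising by 0.53 after BPA and 1.44 after vehicle (difference -0.91 ± 0.10, adjusted p = 0.000448, and 0.0788 on the linear scale). A difference that missed the threshold is not shown to be absent.

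The extracellular matrix list had 23 lower and 2 higher of 38 (65.8% called), a median difference of -0.66, and median responses of -0.44 after BPA and 0.01 after vehicle. Lox, which crosslinks collagen and elastin, read 9.33, 9.30 and 9.39 in BPA-E2 and 11.52, 11.53 and 11.54 in BPA-CTL, against 11.85 and 11.87 in CTL-E2 and 12.30 and 12.13 in CTL-CTL. BPA-E2 lay below every other array, with a response of -2.19 after BPA, -0.36 after vehicle and a difference of -1.83 ± 0.11 (adjusted p = 1.38e-05). Col1a1, the main fibrillar collagen chain, responded by -1.53 after BPA and -0.34 after vehicle, and Eln, elastin, by -1.5 after BPA and 0.26 after vehicle (adjusted p = 0.147). Plod2, a collagen lysyl hydroxylase, had opposite responses of -0.61 and 0.82. Matrix-degrading enzymes and their inhibitors went both ways, with 9 higher and 4 lower of 24 (54.2% called, against 15.6% over all). Mmp3 rose by 0.62 after BPA and fell by 1.5 after vehicle (difference 2.12, or 1.33 without background correction). The 9 higher became 5 without BPA-E2 replicate 2, CTL-E2 replicate 1 or CTL-CTL replicate 1.

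In the Wnt pathway, 12 differences were higher and 2 lower of 34 tested (41.2% called, against 15.6% over all), with a median of 0.34. Sp5, a transcription factor induced by Wnt signalling, read 8.84, 8.98 and 8.76 in BPA-E2 and 7.25, 6.92 and 7.25 in BPA-CTL, against 7.43 and 7.44 in CTL-E2 and 7.46 and 7.37 in CTL-CTL. Only the BPA-E2 arrays were high, and the difference was 1.69 ± 0.17 (adjusted p = 0.000279). Rspo3, an R-spondin that strengthens Wnt signals, responded by 0.32 after BPA and -0.79 after vehicle, and Sfrp2, a secreted Wnt antagonist, by 0.74 and -0.95 in the same order (difference 1.70, or 0.98 without background correction). Wnt5a, a non-canonical ligand, was 1 of the 2 lower members, with a response of -0.11 after BPA (adjusted p = 0.339) and 0.78 after vehicle.

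Chemokines and their receptors gave 10 higher and 4 lower of 30 (46.7% called, against 15.6% over all), with a median difference of 0.29. Cxcl1, which attracts neutrophils, rose by 1.64 after BPA and fell by 0.61 after vehicle, a difference of 2.25 that was 1.49 without background correction. Ccl11, the eosinophil attractant eotaxin, ran the other way, falling by 0.40 after BPA and rising by 1.2 after vehicle (difference -1.60 ± 0.10, adjusted p = 2e-05). Interferon-stimulated genes fell under both exposures, 25 of 32 after BPA and 27 of 32 after vehicle, with median responses of -0.90 and -0.94. Their differences went both ways, 7 higher and 3 lower (31.2% called). Irf9, the DNA-binding part of the interferon-activated complex, rose by 0.79 after BPA and fell by 1.49 after vehicle (difference 2.27 ± 0.12, adjusted p = 8.25e-06), while Oas2, an antiviral enzyme, fell by 3.81 after BPA and 1.81 after vehicle (difference -2.0, or -1.09 without background correction, and 214 intensity units, thus positive, on the linear scale). The 7 higher were 3 with litter as a block, 4 without BPA-E2 replicate 2, BPA-CTL replicate 3 or either CTL-E2 array, 3 without CTL-CTL replicate 1, 2 without CTL-CTL replicate 2, and 12 on the linear scale.

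Among cell type markers, most members of the macrophage, adipocyte and red blood cell lists were called higher in the difference, and 10 of 21 epithelial markers were called lower. Over everything tested, 7.87% were called higher and 7.7% lower. In whole tissue, fewer cells of a type and less RNA per cell cannot be told apart. Of 22 macrophage and dendritic cell markers, 16 were higher and 0 lower (72.7% called), with a median difference of 0.94 and median responses of -0.09 after BPA and -0.79 after vehicle. Their summed intensity was 35245 to 36399 in BPA-E2 and 31540 to 32721 in BPA-CTL, against 41284 to 41729 in CTL-E2 and 70316 to 70831 in CTL-CTL, so CTL-CTL held the most. H2-Ab1, a class II histocompatibility chain, read 11.44, 11.48 and 11.45 in BPA-E2 and 10.96, 10.87 and 10.93 in BPA-CTL, against 11.004 and 11.01 in CTL-E2 and 11.93 and 11.87 in CTL-CTL, a difference of 1.43 ± 0.10 (adjusted p = 3.29e-05). Lyz2, the lysozyme of myeloid cells, responded by 0.49 after BPA and -1.05 after vehicle. Of 9 lymphocyte markers 4 were higher, and this count was 2 without BPA-E2 replicate 2, BPA-CTL replicate 1, BPA-CTL replicate 2, CTL-E2 replicate 1 or CTL-CTL replicate 1, and 1 without CTL-E2 replicate 2 or CTL-CTL replicate 2. With litter as a block it was 3, and Cd3d and Cd3e, parts of the T cell receptor complex, lost their calls (adjusted p = 0.06 and 0.0972). Of 11 neutrophil and eosinophil markers, 3 were higher and 1, Retnlg, was lower (-1.67, or -1.01 without background correction), but on the linear scale Retnlg was called in the opposite direction (747 intensity units, adjusted p = 0.000458). Of 9 mast cell markers, 2 were higher and 0 lower (22.2% called, against 15.6% over all).

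Adipocyte markers had a median difference of 1.26, with 7 of 12 higher and 0 lower (58.3% called, against 15.6% over all). Opposite called responses were seen in 6. With no filter on dim probes the median was 0.66 over 15 markers, below the 0.84 of the macrophage list in that setting. Adipoq, the fat cell hormone adiponectin, read 11.31, 11.39 and 11.38 in BPA-E2 and 10.28, 10.37 and 10.42 in BPA-CTL, against 9.44 and 9.55 in CTL-E2 and 10.65 and 10.82 in CTL-CTL. It was highest in BPA-E2 and lowest in CTL-E2 with no overlap between any groups, a difference of 2.24 ± 0.12 (adjusted p = 9.26e-06). Lep, leptin, rose by 1.43 after BPA and had a response of -0.09 after vehicle (adjusted p = 0.617). The summed intensity of the list was 15638 to 16150 in BPA-E2 and 9565 to 9954 in BPA-CTL, against 8039 to 8367 in CTL-E2 and 11796 to 12633 in CTL-CTL. Plin1, a defining fat cell marker, was detected on 0 arrays. Of 5 red blood cell markers, 4 were higher and 0 lower (80.0% called). Their summed intensity was 79987 to 81349 in BPA-E2 and 69216 to 69875 in BPA-CTL, against 56845 to 60320 in CTL-E2 and 73821 to 77707 in CTL-CTL. Among them, Hba-a1 lost its call in the limma fit with litter as a block (adjusted p = 0.0539). The difference of Hbb-bt, 0.62, was 0.20 and not called when its probes were averaged (adjusted p = 0.254). Fat and blood are not uterine tissue proper, and how far their amount in a pool bears on the other differences was not tested.

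Of 21 epithelial markers, 10 were lower and 1 higher (52.4% called, against 15.6% over all). The median difference was -0.57, with median responses of -0.78 after BPA and -0.24 after vehicle. Their summed intensity was 15465 to 15975 in BPA-E2 and 32695 to 35248 in BPA-CTL, against 28538 to 29141 in CTL-E2 and 39111 to 39479 in CTL-CTL, so BPA-E2 held the least. Krt7, a simple-epithelium keratin, responded by -1.44 after BPA and 0.00 after vehicle (adjusted p = 0.983), and Elf3, an epithelial transcription factor, by -1.69 and -0.33 in the same order. The late secretory genes, not all of which are epithelial products, and the mitosis genes had medians in the same direction as the epithelial list. The part of the epithelial list in those results was not tested. Muc1 is in both the late secretory and the epithelial list, and Lyz2 of the late list is also a macrophage marker. Stromal markers gave 1 higher and 2 lower of 12, smooth muscle markers 2 higher and 3 lower of 18, endothelial markers 3 higher and 2 lower of 18, and nerve markers 0 of 6. The endothelial calls were 0 with litter as a block. Of 6 skeletal muscle markers, 2 were lower, and 1 of 4 ovary and oviduct markers was higher, Gdf9, a dim gene that was not detected in 2 groups and lost its call with litter as a block (adjusted p = 0.0863), without background correction (0.211), with the variance trend (0.23), on the linear scale (0.186) and with 8 of the 10 arrays left out in turn. Of the 11 ovary and oviduct markers on the array, 6 were detected on 0 arrays.

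**Figure D4:**
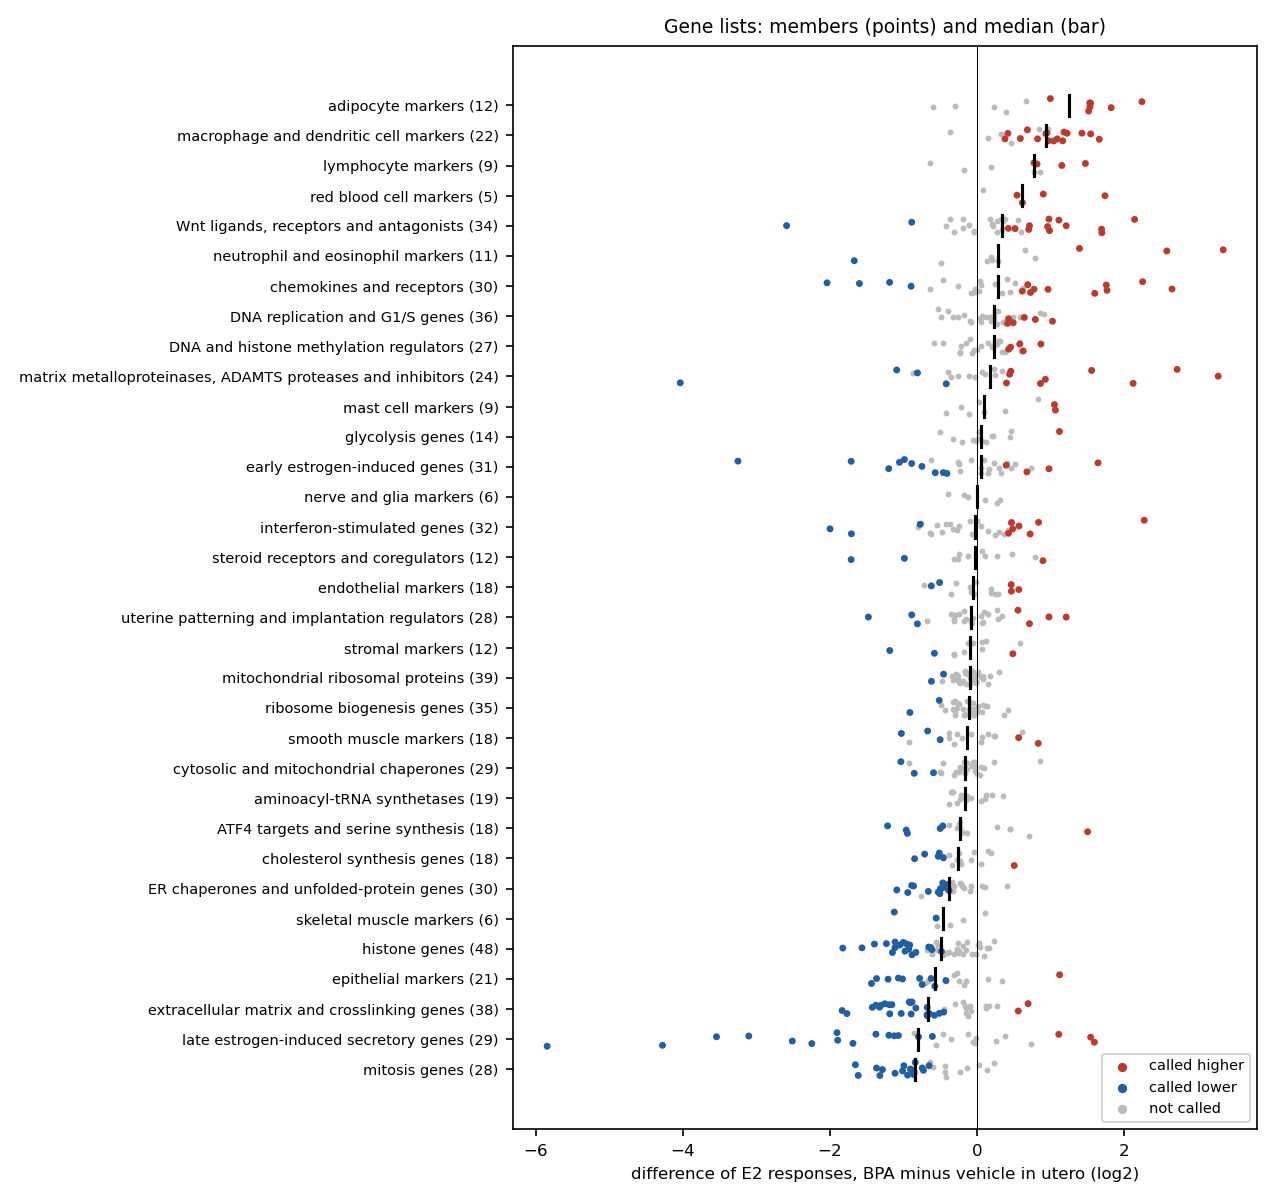
Each point is a member of a gene list (number tested in parentheses) at its difference of E2 responses, BPA minus vehicle in utero, on the log2 scale, with bars at list medians and called members coloured. Of the 34 lists, the ovary and oviduct markers are not drawn, and a gene in several lists appears in each. Adipocyte and macrophage markers lie to the right (medians 1.26 and 0.94) and mitosis and late secretory genes to the left (-0.84 and -0.80); the order of the lists differs in other settings.

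Taken litter by litter, the medians of the BPA and vehicle litters did not overlap for 25 of the 34 lists and overlapped for 9. Such a separation was seen in 45.5% of single genes or unnamed probes, and no share was computed for other sets of genes. The 25 include lists with few calls, such as mitochondrial ribosomal proteins (5.1% called, median difference -0.10). The median E2 minus DMSO difference of the mitosis list was -1.0, -0.98 and -1.08 in the 3 BPA litters, against -0.23 and -0.07 in the 2 vehicle litters. For the macrophage list it was -0.12, -0.01 and -0.13 in BPA litters, against -0.84 and -0.80 in vehicle litters. Adipocyte markers had medians of 0.32, 0.35 and 0.56 in BPA litters, against -0.56 and -0.59 in vehicle litters, with opposite signs under the 2 exposures. For interferon-stimulated genes the litters were close, at -0.75, -0.98 and -1.0 after BPA, against -1.06 and -0.98 after vehicle.

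**Figure D5:**
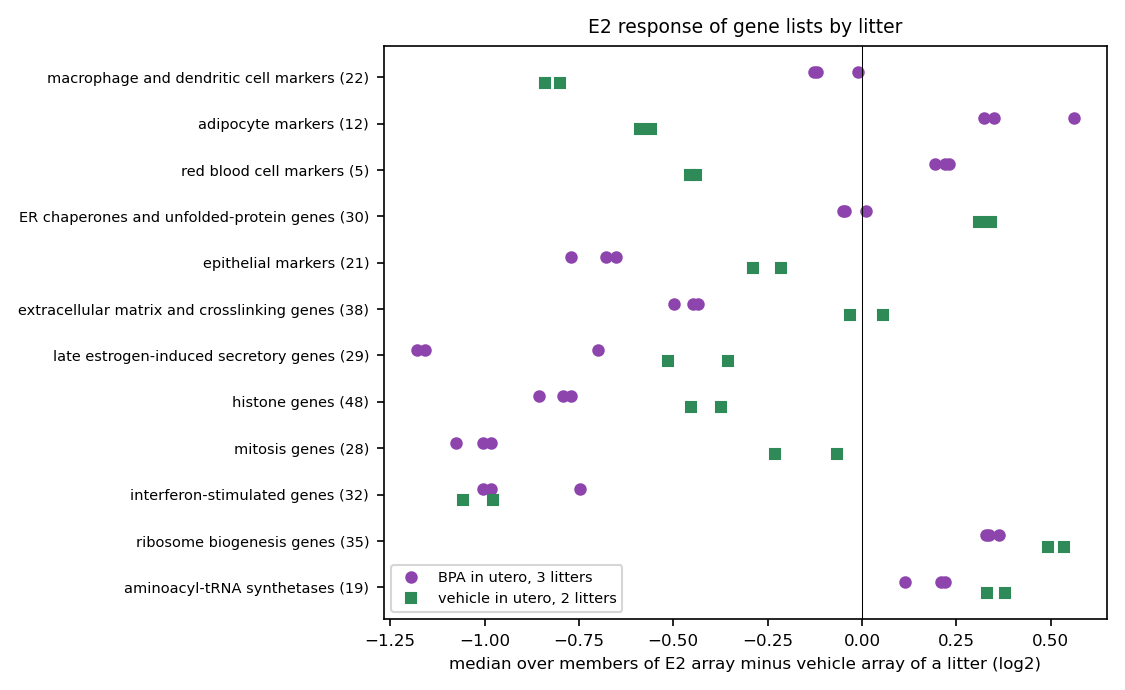
Median over list members of the E2 array minus the DMSO array of the same litter, on the log2 scale, for 12 gene lists (number tested in parentheses), with circles for the 3 BPA-exposed litters and squares for the 2 vehicle-exposed litters. Circles and squares overlap for interferon-stimulated genes and do not overlap for the other 11 lists.

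Regulators of DNA and histone methylation are of interest because the study's title concerns epigenetic programming. Of 27 tested, 5 differences were higher and 0 lower, a share of 18.5% that is close to the 15.6% over all. The median was 0.23. The 5 calls became 2 with litter as a block, 3 without BPA-E2 replicate 1, 2 without BPA-E2 replicate 3, BPA-CTL replicate 3, either CTL-E2 array or CTL-CTL replicate 1, and 1 without BPA-E2 replicate 2 or CTL-CTL replicate 2. Dnmt1, the maintenance DNA methyltransferase, read 9.22, 8.96 and 9.01 in BPA-E2, 8.91, 8.54 and 9.13 in BPA-CTL, 8.84 and 8.74 in CTL-E2 and 8.57 and 8.60 in CTL-CTL, and its difference was 0.00 ± 0.23 (adjusted p = 0.996). Ezh2, the methyltransferase of the Polycomb repressive complex, had a difference of 0.60 ± 0.18 (adjusted p = 0.0532). This difference was called higher in several other settings. Among them were no background correction (0.44, adjusted p = 0.0108) and the authors' processed table (0.44, adjusted p = 0.0106). When the probes of Ezh2 were averaged it was -0.16 and not called (adjusted p = 0.58). Kdm6b, a histone demethylase that acts against Ezh2, had a difference of 0.58 (adjusted p = 0.0112), which was 0.29 and not called when its probes were averaged (adjusted p = 0.136).

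Some called genes were not detected in a whole group and have only a bound there. Of the 2533 called, 293 were not detected on any array of at least 1 group. The same count over everything tested was not computed. Serpina9, a serine protease inhibitor, was detected on 0 of 3 BPA-E2 arrays and on all arrays of the other groups, so it was at least 8.6-fold lower with E2 after BPA (adjusted p = 4.83e-06), and Tmprss11g, a membrane serine protease, was at least 4.03-fold lower there. Cops8, a subunit of the COP9 signalosome, was detected on 0 of 2 CTL-E2 arrays and on all others, so it was at least 6.75-fold lower with E2 after vehicle. Mmp10, a stromelysin, was also undetected in CTL-E2 and at least 5.01-fold lower with E2 after vehicle. Zfp985, a zinc-finger gene, was undetected in CTL-CTL and at least 2.86-fold higher with E2 after vehicle. These bounds set the dim group at the faintest detected signal of its arrays and rest on background-corrected values. The fitted differences without background correction were smaller, at -1.3 against -2.98 for Serpina9, -0.94 against -2.29 for Tmprss11g, 1.36 against 2.96 for Cops8 and 1.36 against 3.28 for Mmp10, and each kept its call.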

How the data were processed

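The authors deposited, per the file headers, a table of mean bead signal intensity and a detection p-value for each of 45281 probes on 10 Illumina mouse arrays, not normalized and with no background subtracted as far as the values show, and a table of their processed intensity values; the scanner software, summary method and normalization of the processed table are not given in the sources used here. Total RNA was labelled as biotinylated cRNA, per the labels' protocols. From the deposited intensity, values were corrected with normexp using detection p-values, quantile normalized and put on the log2 scale with an offset of 16 (neqc, limma 3.58.1, R 4.3.3). Probes with a detection p-value under 0.05 on 2 or more arrays were kept (23942), and the probe of highest mean stood for a gene, which left 16272 units, 12403 of them with a gene symbol. Of the probes, 34885 had 1 symbol, 18 several and 10378 none in the platform annotation, and 34807 took their symbol from RefSeq by gene ID, whether or not it changed.

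One limma fit of 4 group means over all 10 arrays (6 residual degrees of freedom) gave the difference of responses and both responses by eBayes, two-sided, with Benjamini-Hochberg adjustment over all units. The script was tested on simulated data. Errors in the report are standard errors of that fit. The smallest group has 2 arrays, and this number limits the precision. Arrays are litter pools, so p-values measure the spread between these pools. The litter numbers in the labels pair the E2 and DMSO arrays of a litter; deviations from group means correlated by -0.0409 to 0.0222 within litters.

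The members and the 34 gene lists were chosen with earlier results of these data known. Genes named are the 12 largest differences in each direction among genes detected in every group, 6 opposite-sign genes in each direction, up to 4 members of a list by p, 3 in each direction undetected in a group, and 18 genes of interest; others are marked in the report. Bounds set an undetected group, per array, at the higher of its own value and the faintest detected probe. The alternatives tried were background correction, offset, normalization, filter, choice of probe, variance model, array weights, scale, threshold, the authors' processed table, litter as a block and leaving out each array. One gene list member is not reported here.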

Additional observations from a re-analysis of the deposited data

How the results depend on the processing

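Over 25 alternative settings the number of called differences stayed within 1.5 times of 2533, between 1739 with litter as a block and 3493 when the variance was given a trend and estimated robustly, apart from the stricter threshold. At an adjusted p under 0.01 it was 1205, with 612 higher and 593 lower, and 128 and 69 with opposite responses (higher after BPA and lower after vehicle, and the reverse). The 158 that fell after BPA and rose after vehicle were 245 with that variance model. Leaving out 1 array gave 1794 to 2237 called, 910 to 1145 higher, 875 to 1092 lower, and 215 to 253 and 107 to 139 with opposite responses. The replicate block by litter gave 1739 called, 887 higher and 852 lower, and 1631 of them were also called without it. The split into higher and lower was 1896 and 1385 on the linear scale. The authors' processed table gave 3302.

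Of 144 named genes, 23 lost their call with litter as a block and 25 when some array was left out. Dnmt1, at 0 within its error, changed sign without background correction (0.00142), with cyclic loess (0.0115), with each slide normalized alone (0.00508), in the authors' table (0.00333), on the linear scale (6.47 intensity units) and with 6 of the arrays left out (-0.163 to 0.133 over all arrays). Ezh2 (-0.156) and Synm (-0.00576) changed sign with the mean of a gene's probes. Esr1 changed sign without BPA-CTL replicate 3 (0.0136) or CTL-CTL replicate 1 (0.0539), with a range of -0.299 to 0.0539 over left-out arrays, and Hoxa11 without BPA-CTL replicate 3 (0.0791), with a range of -0.413 to 0.0791. On the linear scale, in intensity units, Cxcl17 (54.2), Egr1 (416), Muc1 (461), Oas2 (214) and Retnlg (747) turned positive. The cause of these changes was not tested. Across 782 list medians, 636 moved by less than the spread. The signs of 6 lists changed in some setting: early estrogen-induced, interferon-stimulated, nerve, steroid receptor, glycolysis and endothelial genes. Counting every probe in place of 1 probe for each gene gave 38 lower for the matrix list, 17 for epithelial markers and 17 for early estrogen-induced genes. Signal over background limits genes near 4.5 log2 units, where a normalized value is mostly offset and background.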

Other observations

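Mast cell markers gave 2 higher and 0 lower of 9 tested (22.2% called, against 15.6% over all). Hdc, which makes histamine, read 11.78, 11.88 and 11.88 in BPA-E2 and 10.82, 10.86 and 10.73 in BPA-CTL, against 11.40 and 11.23 in CTL-E2 and 11.38 and 11.30 in CTL-CTL, a difference of 1.07 ± 0.12 (adjusted p = 0.00054 in the limma fit). Kit, the stem cell factor receptor of mast cells and other cells, had a difference of 1.05. Prg2, the major basic protein of eosinophils, rose by 1.32 after BPA and had a response of -0.07 after vehicle (adjusted p = 0.762), a difference of 1.39 that was 0.59 without background correction.

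Among ATF4 targets and serine synthesis genes, 1 of 18 was higher and 5 were lower (33.3% called, against 15.6% over all). Asns, asparagine synthetase, had a response of 0.05 after BPA (adjusted p = 0.614) and rose by 1.02 after vehicle, and it was higher in both BPA-exposed groups than in CTL-CTL (means 11.58 in BPA-E2 and 11.53 in BPA-CTL, against 10.96 in CTL-E2 and 9.94 in CTL-CTL). Chac1, a glutathione-degrading enzyme and ATF4 target, ran the other way, rising by 1.09 after BPA and falling by 0.42 after vehicle (difference 1.5 ± 0.16, adjusted p = 0.000483). The 5 lower were 3 with litter as a block, and 3 without BPA-E2 replicate 2, BPA-E2 replicate 3, BPA-CTL replicate 3, CTL-E2 replicate 1, CTL-CTL replicate 1 or CTL-CTL replicate 2. Of 18 cholesterol synthesis genes, 5 were lower and 1 higher, and the 5 were 2 with litter as a block and 1 to 4 when 1 array was left out. Cytosolic and mitochondrial chaperones gave 3 lower of 29, among them Hspa1a, an inducible heat shock protein (difference -1.04, or -0.55 over the mean of its probes), and glycolysis genes 1 higher of 14, Aldoc. The shares called were 10.3% and 7.1% in that order, against 15.6% over all. That of the cholesterol synthesis genes was 33.3%.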
